A study of Mus musculus with 6 samples.

Results

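The ADAM and ADAMTS family was taken as every gene whose symbol is Adam, Adamts or Adamtsl followed by a number and at most 1 further letter. The count table held 56 such genes of 50385, namely 32 ADAM, 19 ADAMTS and 5 ADAMTSL genes. They were measured by RNA sequencing in 6 heart libraries from male Mdx/Utrn double-knockout mice, which lack dystrophin and its relative utrophin and develop the heart disease of Duchenne muscular dystrophy. Treatment began at 2 to 3 months of age and was given daily by gavage for 12 weeks, in 3 libraries with setanaxib, an inhibitor of the hydrogen peroxide-producing oxidase Nox4, at 60 mg/kg per day, and in the other 3 with corn oil, its vehicle. The design gives 1 comparison, setanaxib against vehicle. It holds no other way of lowering Nox4, so a difference with the drug cannot be assigned to Nox4 itself. Every library carries the same double knockout, no treated or untreated wild-type heart was analysed here, and whole hearts mix many cell types.

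ADAMs are membrane proteins that cut the outer part off other membrane proteins, releasing growth factors, cytokines and receptor fragments, and several lack a working catalytic site and act in adhesion. ADAMTS enzymes are secreted relatives with thrombospondin repeats that cut proteoglycans, procollagens and other matrix proteins, and ADAMTS-like (ADAMTSL) proteins keep the repeats but have no protease domain. In the heart these genes are known for the turnover of versican and collagen, for the release of epidermal growth factor receptor ligands, and for the microfibrils of fibrillin.

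Libraries held 110803307 to 154003318 estimated counts over all genes. A level of 3 counts lies at 0.0205 to 0.0247 CPM (counts brought to the same library size). The counts are estimates that can be 0 for reasons other than absence, so a 0 does not place a gene under that level. Markers of heart muscle cells were present in all libraries, with a sum over 9 genes of 32940 to 46450 CPM. Setanaxib replicate 3 stood apart. Its 3 measured atrial markers (Nppa, Myl7, Myl4) summed to 2914 CPM, where the others had 66.5 to 568 CPM. Its 5 adipocyte markers summed to 110 CPM against 0 to 3.94 CPM, and its 3 measured mesothelial markers to 20.8 CPM against 2.87 to 6.29 CPM. Of these, Lep was at 0 in every other library, Adipoq was under 0.1 CPM in setanaxib replicate 3 and 0 elsewhere, and Krt19 was at 0 in all 6. The atrial markers also differed among the other libraries, with Myl7 and Myl4 at 21.4 to 23.9 CPM in vehicle replicates 1 and 3. In vehicle replicate 2 and setanaxib replicates 1 and 2 these markers were at 0.103 to 1.85 CPM. The labels give each library a number of its own without calling it a separate animal, so p-values speak only of the spread among libraries.

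Of the 56 members, 20 were at 0 in every library and 34 had enough counts to be tested. The other two, Adam21 and Adam28, were above 0 in a single library each. Most of the members at 0 belong to the ADAMs known from the male reproductive tract, of which 16 of 20 were at 0 and 3 were tested (Adam1a, Adam1b and Adam4). Of 8 testis germ cell markers, 5 were at 0 in all libraries, and the sum of all 8 was at most 0.944 CPM. Among secreted members, Adamts13, which cleaves von Willebrand factor, and Adamts16, Adamts18 and Adamts20 were at 0. All 5 ADAMTSL genes were measured.

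For Adam19 and Adamtsl5, the 2 members that DESeq2 called lower with setanaxib, the sequence before the start of transcription is shown. RefSeq (GRCm38.p6) lists windows for 20 of the 34 tested members, and the 250 bases before each start were searched on both strands for TGANTCA (AP-1), CACGTG (an E-box), GGGCGG (a GC box) and CCAAT. No match shown overlaps another. Adam19 has 3 listed starts, at chr11:46054252-46054501, chr11:46055734-46055983 and chr11:46127654-46127903 (plus strand, the window before each), and Adamtsl5 has 1, at chr10:80348449-80348698 (minus strand). Capitals mark the matches, and every window is written 5′ to 3′ with the start of transcription just after its last base.
Adam19, first start: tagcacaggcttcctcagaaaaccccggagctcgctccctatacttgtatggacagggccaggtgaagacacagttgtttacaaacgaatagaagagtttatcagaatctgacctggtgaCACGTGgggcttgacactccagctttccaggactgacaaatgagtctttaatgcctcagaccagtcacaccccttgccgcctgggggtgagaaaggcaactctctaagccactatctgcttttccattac
Adam19, the second start: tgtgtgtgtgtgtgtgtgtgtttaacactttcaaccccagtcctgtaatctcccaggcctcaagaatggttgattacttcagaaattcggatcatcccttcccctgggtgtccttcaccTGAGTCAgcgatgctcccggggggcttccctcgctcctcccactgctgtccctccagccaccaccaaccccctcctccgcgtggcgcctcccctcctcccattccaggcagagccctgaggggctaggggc
Adamtsl5: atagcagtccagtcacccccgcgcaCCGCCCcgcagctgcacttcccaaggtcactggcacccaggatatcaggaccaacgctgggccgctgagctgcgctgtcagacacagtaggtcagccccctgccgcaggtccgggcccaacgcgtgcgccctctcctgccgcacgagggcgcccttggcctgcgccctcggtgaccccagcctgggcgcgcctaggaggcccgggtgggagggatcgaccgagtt

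The Adam19 windows held 1 E-box, beginning 130 bases before the first start, and 1 AP-1 match, beginning 131 bases before the second. The last Adam19 window held none of the motifs. Adamtsl5 held 1 GC box on the opposite strand, 225 bases before its start. AP-1 occurred in 6.75% of all 32851 mouse windows of this length, the E-box in 6.02%, the GC box in 32.7% and CCAAT in 33.8%. Of the 20 tested members with a window, 1 (Adam19) had an AP-1 match, 3 an E-box, 13 a GC box and 5 CCAAT. Tested members' windows had a median GC content of 65% against 52.4% over all windows. The windows over all genes were not limited to genes with enough counts to be tested, so the sets are unlike. Motif shares over all windows count windows, where members were counted as genes. Gene counts do not say which start was used, and a match is a run of letters, not a site shown to be bound.

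Levels were compared between members per kilobase of exon, with exon lengths from GENCODE M21 (GRCm38). Adamtsl5 and Adamtsl4, which codes for a fibrillin-binding protein, led with means over the 6 libraries of 19.4 and 18.3 CPM per kb. Below them came Adam19 (11.3), Adam9 (10.3), Adam15 (8.98) and Adam10 (8.73), all of them shedding enzymes, and Adamts1 (7.93), the highest of the ADAMTS enzymes. Adam17, the shedding enzyme for tumour necrosis factor, was at 3.37 CPM per kb. The lowest tested members were Adamtsl1, Adamts17 and Adamts19, at 0.235, 0.106 and 0.0710 CPM per kb. Every pair of neighbours in this order overlapped in the range of their 6 libraries, so only members some steps apart can be ordered. The order also differed by group. By the setanaxib means, Adamtsl4 (19.2) was above Adamtsl5 (14.7). Adam19 (7.7) was there below Adam9 (9.3), Adam15 (8.8), Adamts1 (8.7) and Adam10 (8.5).

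**Figure D1:**
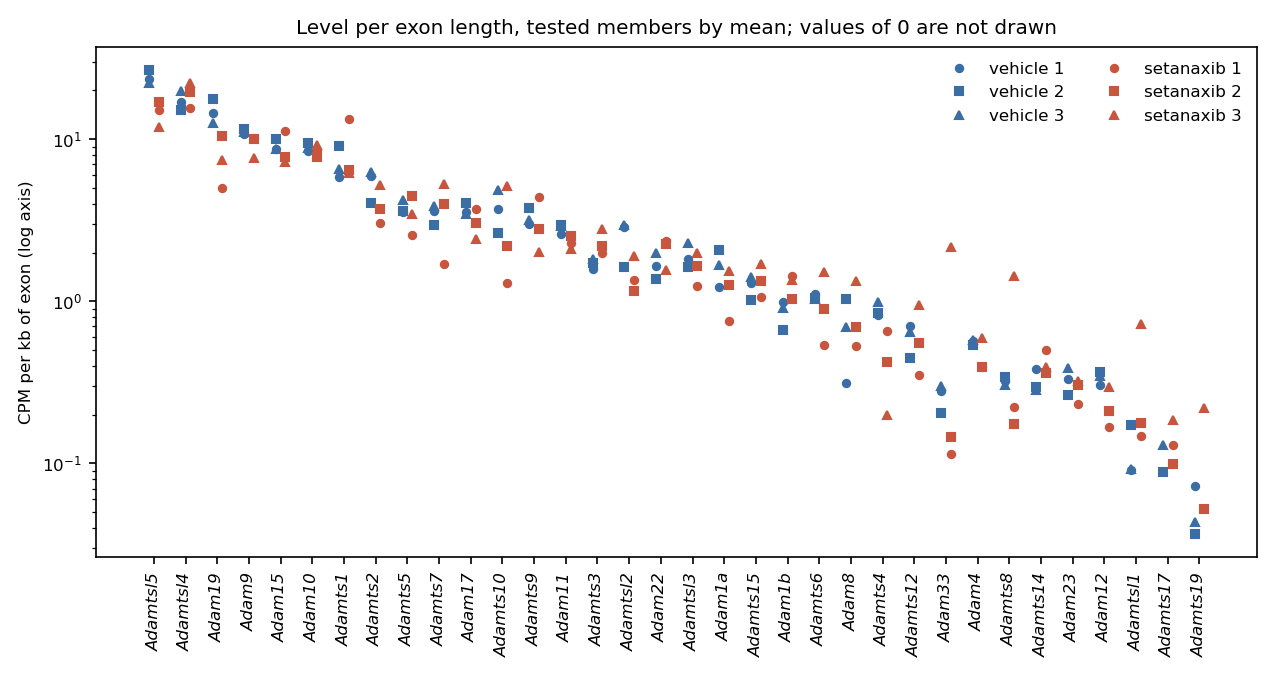
Level of each of the 34 tested members in CPM per kb of exon (log axis), ordered by the mean over 6 libraries, with vehicle in blue and setanaxib in red and a symbol for each replicate. Adamtsl5 and Adamtsl4 lie highest (means 19.4 and 18.3 CPM per kb), values of 0 are not drawn, and setanaxib replicate 3 lies far above the other libraries for Adam33, Adamts8, Adamtsl1 and Adamts19.

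Adam19 and Adamtsl5 were lower in the setanaxib libraries, a difference that passed adjustment by DESeq2 but not by edgeR or limma-voom. The family as a whole did not move in 1 direction. Of the 34 tested members, 19 were lower and 15 higher with setanaxib (48.4% of all genes tested were lower and 51.6% higher), and the median log2 fold change was -0.09, against 0.01 over all 20472 genes tested. No member passed edgeR's test with adjustment over all genes, by which 1 gene in all was called (0.00488%). DESeq2 called Adam19 and Adamtsl5 lower and no member higher, where it called 1.52% of 20340 genes lower, 0.905% higher and so 2.43% in either direction. At an unadjusted edgeR p under 0.05 there were 6 lower members (4.69% of all genes) and 2 higher members (3.76%), against 8.46% of all genes in either direction. Vehicle and setanaxib libraries were fully apart for 6 lower members (9.46% of all genes) and 2 higher ones (8.11%), against 17.6% of all genes in either direction. The count of 8 members at an unadjusted p under 0.05 was 4, 3 and 3 without vehicle replicates 1, 2 and 3. It was 9, 6 and 10 without setanaxib replicates 1, 2 and 3. Over all genes the count moved likewise, from 1731 to 1025 of 21024, 990 of 20899 and 1182 of 21018 without those vehicle replicates. Without the setanaxib replicates it was 2126 of 20985, 2088 of 21068 and 2834 of 20880. Adam19 and Adamtsl5 kept an unadjusted edgeR p under 0.05 in all 6 fits without 1 library (at most 0.0455 and 0.0151). In bulk tissue, fewer cells of a type and less RNA per cell cannot be told apart.

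**Figure D2:**
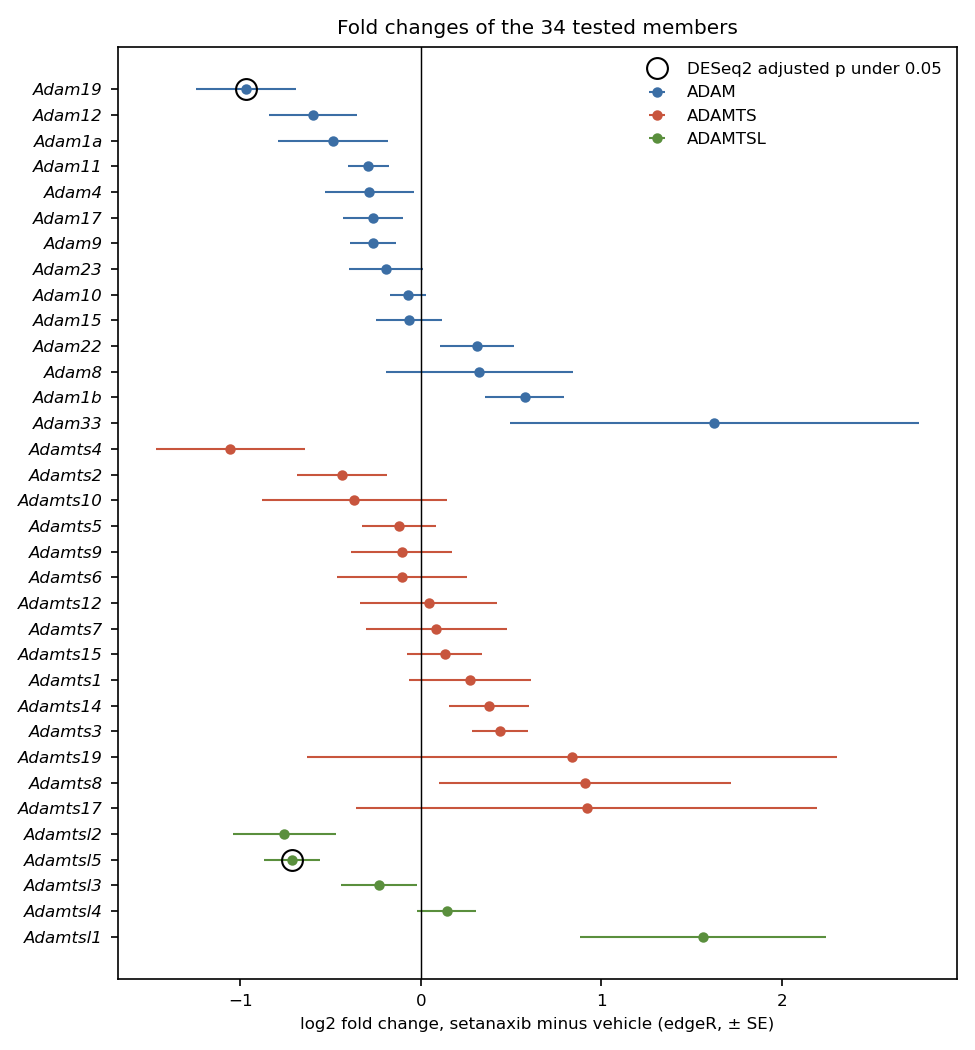
Log2 fold change of setanaxib minus vehicle from edgeR (point) with its SE (bar) for the 34 tested members, by subfamily. The rings mark Adam19 (-0.97) and Adamtsl5 (-0.71), the members that DESeq2 called, and the widest bars belong to members high in setanaxib replicate 3 or at 0 in 1 library.

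Among the ADAMs, 10 of 14 tested members were lower, with a median log2 fold change of -0.23, and of the 8 tested shedding enzymes 6 were lower (median -0.17). ADAM mRNA summed over the subfamily was 334, 382 and 335 CPM with vehicle and 283, 296 and 274 CPM with setanaxib. With Adam19 left out, the sums were 230, 256 and 245 CPM against 247, 222 and 220 CPM, and the groups overlapped.

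Adam19, an ADAM of developing heart valves and septa that can shed neuregulin, measured 104, 126 and 89.7 CPM in the vehicle group against 35.7, 74.4 and 53.3 CPM in the setanaxib group (replicates 1, 2 and 3 of each). All 3 setanaxib libraries lay below the lowest vehicle library. Its log2 fold change was -0.97 (SE 0.28), with an edgeR adjusted p of 0.450 and a DESeq2 adjusted p of 0.0283. Leaving out a library gave log2 fold changes from -1.26 to -0.74. Its exons share 480 bases with Gm16034 on the other strand, which was at 0 in all libraries, and a longer stretch with Gm16033, also on the other strand and not analysed here.

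Adam12, an ADAM induced in regenerating muscle and in activated fibroblasts, measured 3.21, 3.87 and 3.67 CPM in the vehicle group against 1.77, 2.21 and 3.12 CPM in the setanaxib group. The groups lay apart by a small margin, between 3.12 and 3.21 CPM. Its log2 fold change was -0.60 (SE 0.24), with an edgeR adjusted p of 0.588 and a DESeq2 adjusted p of 0.368. At 0.281 CPM per kb it was among the lowest members, at rank 31 of 34.

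Adam9, a broadly expressed shedding enzyme, measured 44.6, 47.8 and 45.9 CPM in the vehicle group against 42.2, 41.5 and 31.6 CPM in the setanaxib group. The groups did not overlap, but most of the difference lay in setanaxib replicate 3 (log2 fold change -0.26 ± 0.13 SE, edgeR adjusted p = 0.654, and -0.14 without that library). Adam10, the main shedding enzyme of Notch receptors and cadherins, measured 41.7, 46.9 and 43.3 CPM in the vehicle group against 42.0, 38.2 and 45.3 CPM in the setanaxib group. Its groups overlapped, and its log2 fold change was -0.07 ± 0.10 (SE), with edgeR adjusted p = 0.899 and the smallest standard error of the family. Adam17 had a log2 fold change of -0.27 ± 0.17 (SE), with edgeR adjusted p = 0.733, again with overlapping groups. Adam15, an ADAM with an integrin-binding motif found in endothelium, measured 53.9, 61.9 and 53.5 CPM in the vehicle group against 69.1, 47.8 and 44.8 CPM in the setanaxib group (log2 fold change -0.07, SE 0.18). Setanaxib replicate 1 was its highest library and setanaxib replicate 3 its lowest. Adam8, known from leukocytes, and Adam4, a testis gene, had overlapping groups and log2 differences of 0.32 (SE 0.52) and -0.29 (SE 0.25).

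The 3 ADAMs without a working catalytic site, Adam11, Adam22 and Adam23, are known from neurons, where they bind LGI proteins at synapses and axons. Adam11 measured 14.8, 16.8 and 16.6 CPM in the vehicle group against 13.0, 14.4 and 12.0 CPM in the setanaxib group. Its groups did not overlap (log2 fold change -0.29 ± 0.11 SE, edgeR adjusted p = 0.577). Adam22 and Adam23 overlapped between groups, at log2 fold changes of 0.31 (SE 0.20) and -0.19 (SE 0.21). Markers of Schwann cells and neurons, 7 in the list, summed to 6.03 to 8.52 CPM with vehicle and 3.17 to 15.1 CPM with setanaxib, with Snap25 and Th at 0 outside setanaxib replicate 3. Their part in the Adam11 values was not tested.

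Adam1a and Adam1b, neighbouring genes for forms of the sperm protein fertilin alpha, had fold changes of opposite sign. Adam1b measured 3.31, 2.23 and 3.02 CPM in the vehicle group against 4.78, 3.45 and 4.54 CPM in the setanaxib group. All setanaxib libraries were above all vehicle libraries (log2 fold change 0.58 ± 0.22 SE, edgeR adjusted p = 0.554). Adam1a had a log2 fold change of -0.49 (SE 0.31) with overlapping groups. Of its 7508 exon bases, 4779 are shared with Gm42878 and 1805 with Mapkapk5 on the same strand, so its value is uncertain. Gm42878 was at 4.84 CPM in setanaxib replicate 1, where Adam1a was lowest at 5.70 CPM, and at 0 in the other libraries.

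**Figure D3:**
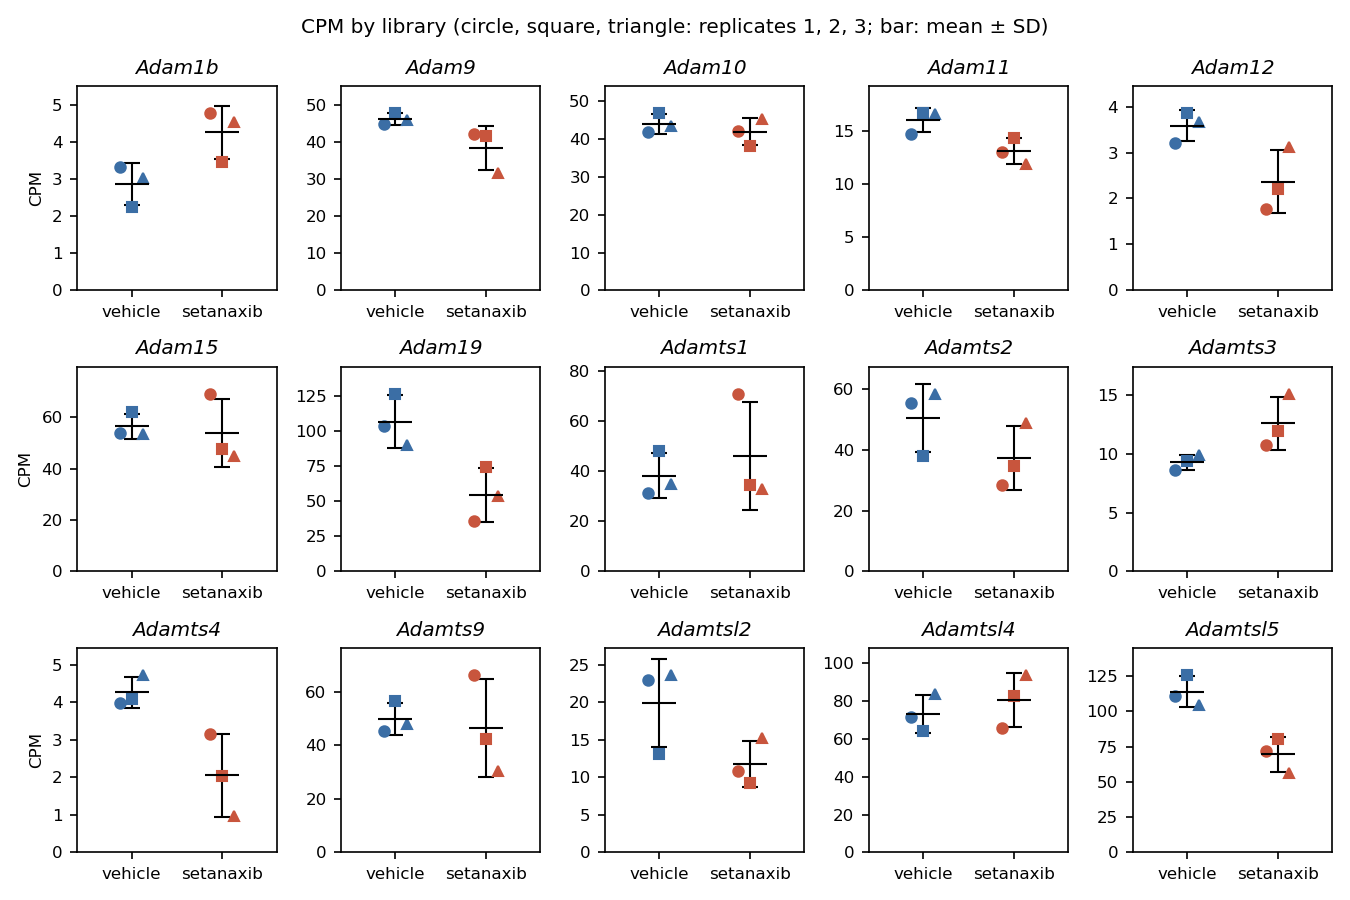
CPM in each library for the 15 members described by library, with vehicle in blue, setanaxib in red, a symbol for each replicate and a bar for the mean ± SD (n = 3). Adam19 and Adamtsl5 show the widest gaps in CPM between groups that do not overlap, and Adam10 and Adamtsl4 overlap.

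The ADAMTS enzymes as a subfamily were split, with 6 of 15 tested members lower, 9 higher and a median log2 fold change of 0.09, which was -0.28 without setanaxib replicate 3. Their summed mRNA was 270, 263 and 300 CPM with vehicle and 252, 248 and 295 CPM with setanaxib, with overlapping groups.

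Of the proteoglycan-cleaving enzymes, which cut versican and aggrecan, 3 of 6 tested members were lower. Adamts4 measured 3.99, 4.09 and 4.74 CPM in the vehicle group against 3.17, 2.04 and 0.964 CPM in the setanaxib group. All setanaxib libraries were below all vehicle libraries, with the lowest value in setanaxib replicate 3. Its log2 fold change was -1.05 (SE 0.41), the lowest of the family, with an edgeR adjusted p of 0.569 and a DESeq2 adjusted p of 0.291.

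Adamts1, which cleaves versican during heart development, measured 31.2, 48.1 and 35.0 CPM in the vehicle group against 70.8, 34.3 and 32.9 CPM in the setanaxib group. The high value in setanaxib replicate 1 set its direction: the log2 fold change of 0.27 (SE 0.34) was -0.19 without that library. Adamts9, a relative that also trims versican, was highest in the same library, at 66.3 CPM against 45.2, 56.5 and 47.8 CPM with vehicle and 42.3 and 30.3 CPM in setanaxib replicates 2 and 3. Its log2 fold change of -0.11 (SE 0.28) was 0.13 without setanaxib replicate 3. Adamts5, the neighbour of Adamts1 on chromosome 16, was lowest in the library where Adamts1 was highest (27.6 CPM, against 37.2 to 48.0 CPM in the others), and its log2 fold change was -0.12 (SE 0.21).

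The procollagen N-propeptidases trim the amino end of fibrillar procollagens before fibrils form, and their 3 genes did not move together. Adamts2 measured 55.4, 37.9 and 58.6 CPM in the vehicle group against 28.5, 34.6 and 49.0 CPM in the setanaxib group. Its groups overlapped (log2 fold change -0.44 ± 0.25 SE, edgeR adjusted p = 0.699). Adamts3, which also activates the lymphatic growth factor VEGF-C, measured 8.62, 9.36 and 9.89 CPM in the vehicle group against 10.7, 12.0 and 15.1 CPM in the setanaxib group. All setanaxib libraries were above all vehicle libraries (log2 fold change 0.44 ± 0.16 SE, edgeR adjusted p = 0.530, DESeq2 adjusted p = 0.219). Adamts14 had a log2 fold change of 0.38 (SE 0.22) with overlapping groups.

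The enzymes that cut cartilage oligomeric matrix protein, Adamts7 and Adamts12, differed by 0.09 (SE 0.39) and 0.04 (SE 0.38) on the log2 scale. Both were lowest in setanaxib replicate 1 and highest in setanaxib replicate 3, from 10.7 to 33.5 CPM and from 3.81 to 10.3 CPM. The fibrillin-associated enzymes were also lowest and highest in these libraries: Adamts10 was at 10.7, 18.1 and 42.6 CPM and Adamts6 at 4.17, 7.01 and 11.9 CPM in setanaxib replicates 1 to 3, against 21.7 to 39.9 CPM and 8.07 to 8.65 CPM with vehicle. For none of the 4 was the log2 difference between groups larger than its SE. Adamts15, another proteoglycan-cleaving enzyme, had a log2 fold change of 0.13 (SE 0.21) with overlapping groups.

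Among the ADAMTSL genes, 3 of 5 were lower, and the median log2 fold change was -0.23. Their summed mRNA was 220, 218 and 231 CPM with vehicle and 160, 187 and 190 CPM with setanaxib. Without Adamtsl5 the sums were 110, 91.9 and 126 CPM against 88.0, 107 and 134 CPM, so the gap between groups rested on that gene.

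Adamtsl5, a fibrillin- and heparin-binding microfibril protein, measured 110.6, 126 and 105 CPM in the vehicle group against 72.0, 80.5 and 56.0 CPM in the setanaxib group (replicates 1, 2 and 3 of each). The groups lay well apart, with means of 114 ± 11.0 CPM and 69.5 ± 12.4 CPM (SD, n = 3). Its log2 fold change was -0.71 (SE 0.15), with an edgeR adjusted p of 0.356 and a DESeq2 adjusted p of 0.00449, and it stayed between -0.83 and -0.57 in the fits without 1 library. No exon of another gene in GENCODE M21 overlaps its exons.

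Adamtsl2, which binds fibrillin and the latent TGF-beta binding protein Ltbp1, measured 22.9, 13.1 and 23.7 CPM in the vehicle group against 10.9, 9.24 and 15.2 CPM in the setanaxib group. Vehicle replicate 2 lay within the setanaxib range, so the groups overlapped (log2 fold change -0.76 ± 0.29 SE, edgeR adjusted p = 0.552, DESeq2 adjusted p = 0.212). Adamtsl4 measured 71.4, 64.0 and 83.7 CPM in the vehicle group against 65.6, 82.5 and 93.8 CPM in the setanaxib group. Its groups overlapped, at a log2 fold change of 0.14 ± 0.17 (SE) and edgeR adjusted p = 0.878. Adamtsl3 had a log2 fold change of -0.23 (SE 0.21).

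A set of low members owed all or part of a higher mean with setanaxib to 1 library. Adam33, an ADAM of smooth muscle and fibroblasts, was at 11.7 CPM in setanaxib replicate 3, where the others had 0.613 to 1.62 CPM. Adamts8 was at 6.57 CPM there against 0.806 to 1.58 CPM, Adamtsl1 at 9.27 CPM against 1.16 to 2.26 CPM, and Adamts19 at 3.10 CPM against 0 to 1.02 CPM. Without that library the log2 fold changes of Adam33 and Adamts8 went from 1.63 (SE 1.13) and 0.91 (SE 0.81) to -1.01 and -0.70. That of Adamts19 went from 0.84 (SE 1.47) to -0.97. That of Adamtsl1 fell from 1.56 (SE 0.68) to 0.46 and kept its sign. In the same library the atrial, adipocyte and mesothelial marker sums given above were highest. Their part in these values was not tested.

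Over the family, setanaxib replicate 3 was the highest library for 14 of 34 tested members (41.2%, against 26.3% of all genes tested), and setanaxib replicate 1 was the lowest for 14 (41.2%, against 28.9%). Without setanaxib replicate 3, 9 members changed sign and 24 of 34 were lower. In at least 1 fit without 1 library, 12 of the 34 members changed sign, and the rest kept theirs in all of these fits. Among those that kept it were the lower members Adam19, Adamtsl5, Adam12, Adam11, Adam9 and Adamts4 and the higher members Adam1b and Adamts3.

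**Figure D4:**
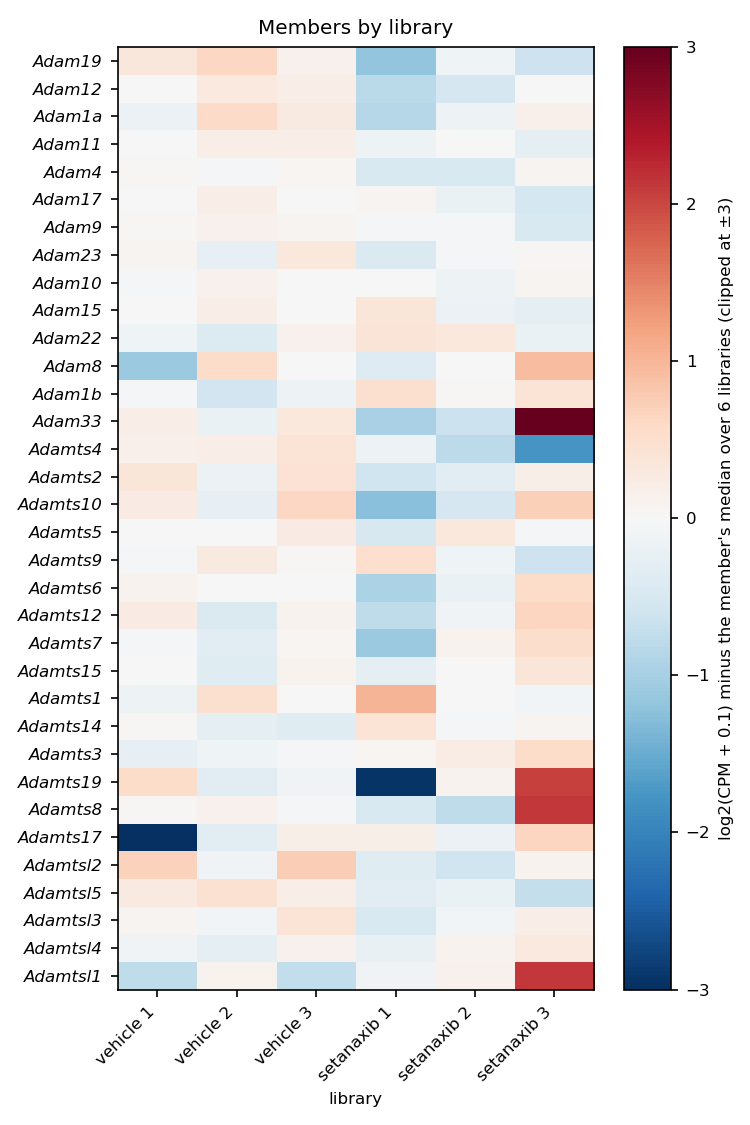
Each tested member (row) in each library (column) as log2(CPM + 0.1) minus its median over the 6 libraries, red above and blue below. Setanaxib replicate 3 is red for Adam33, Adamts8, Adamts19 and Adamtsl1. The rows of Adam19, Adamtsl5, Adam9, Adam11, Adam12 and Adamts4 are blue in all 3 setanaxib libraries. With this centring, that holds for any member whose setanaxib values all lie below its vehicle values.

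Genes that act with the family were read from 4 lists, which were chosen with earlier results of these data known. Their shares beside those of all genes describe the lists and are not a test of them. Of 33 tested ADAM substrates, 25 were lower (48.4% of all genes tested), with 5 lower (4.69% of all genes) and 0 higher (3.76%) at an unadjusted edgeR p under 0.05. Their median log2 fold change was -0.24, against 0.01 over all genes. Cx3cl1, a chemokine shed from endothelium by Adam10 and Adam17, measured 17.8, 17.5 and 23.1 CPM in the vehicle group against 7.98, 11.4 and 10.5 CPM in the setanaxib group (log2 fold change -0.97 ± 0.18 SE, edgeR adjusted p = 0.303, DESeq2 adjusted p = 0.000375). Notch3, a receptor of mural cells, averaged 82.0 ± 5.29 CPM and 65.3 ± 0.592 CPM (SD, n = 3), with an edgeR adjusted p of 0.396 and a DESeq2 adjusted p of 0.00472. DESeq2 also called Tnfrsf1b lower. The most abundant substrates, the cadherins Cdh2 and Cdh5, differed by log2 values of -0.03 (SE 0.14) and -0.14 (SE 0.11).

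Substrates and partners of ADAMTS and ADAMTSL proteins were lower in 24 of 28 tested genes (48.4% of all genes), with 13 at an unadjusted edgeR p under 0.05, all of them lower (4.69% of all genes). Their median log2 fold change was -0.50. Because this list, too, was chosen with earlier results of these data known, its shares are a description only. Versican (Vcan), the main substrate of the proteoglycan-cleaving enzymes in heart, measured 54.9, 52.9 and 50.3 CPM in the vehicle group against 38.0, 31.4 and 32.6 CPM in the setanaxib group. The groups lay apart, with a log2 fold change of -0.63 ± 0.10 (SE), an edgeR adjusted p of 0.234 and a DESeq2 adjusted p of 4.45e-05. Fibrillin 1 (Fbn1), to which some ADAMTSL proteins bind, averaged 212 ± 3.30 CPM and 138 ± 14.6 CPM (SD, n = 3). DESeq2 called Vcan, Fbn1, Col1a2, Col3a1 and Ltbp2 lower (1.52% of all genes) and none higher (0.905%). Among the most abundant of the list, the small proteoglycan Bgn had a log2 fold change of -0.75 (SE 0.25) without overlap, and Lrp1, the receptor that takes up Adamts4 and Adamts5, of -0.27 (SE 0.26) with overlap.

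The tissue inhibitors of metalloproteinases (TIMPs) were split, with 2 of 4 lower. Timp1 measured 7.60, 16.5 and 12.1 CPM in the vehicle group against 3.21, 5.90 and 2.28 CPM in the setanaxib group (log2 fold change -1.67 ± 0.43 SE, edgeR adjusted p = 0.416, DESeq2 adjusted p = 0.0108). Timp3, the matrix-bound inhibitor of Adam17 and of several ADAMTS enzymes, averaged 151 ± 32.4 CPM and 201 ± 40.1 CPM (SD, n = 3) with overlapping groups (log2 fold change 0.42, SE 0.21). Timp2 had a log2 fold change of -0.19 (SE 0.23).

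Partners and regulators of ADAMs were lower in 9 of 14 tested genes (median log2 fold change -0.03). Rhbdf2, the iRhom that carries Adam17 to the surface of immune cells, measured 25.6, 25.9 and 22.3 CPM in the vehicle group against 14.2, 18.1 and 20.2 CPM in the setanaxib group, without overlap (log2 fold change -0.49 ± 0.15 SE, edgeR adjusted p = 0.469, DESeq2 adjusted p = 0.0990). Tspan17, a tetraspanin partner of Adam10, had a log2 fold change of -0.57 (SE 0.18), again without overlap. The proprotein convertases Furin and Pcsk6, the most abundant of the list and enzymes of the kind that remove the ADAM prodomain, differed by log2 values of 0.12 (SE 0.11) and -0.24 (SE 0.13).

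**Figure D5:**
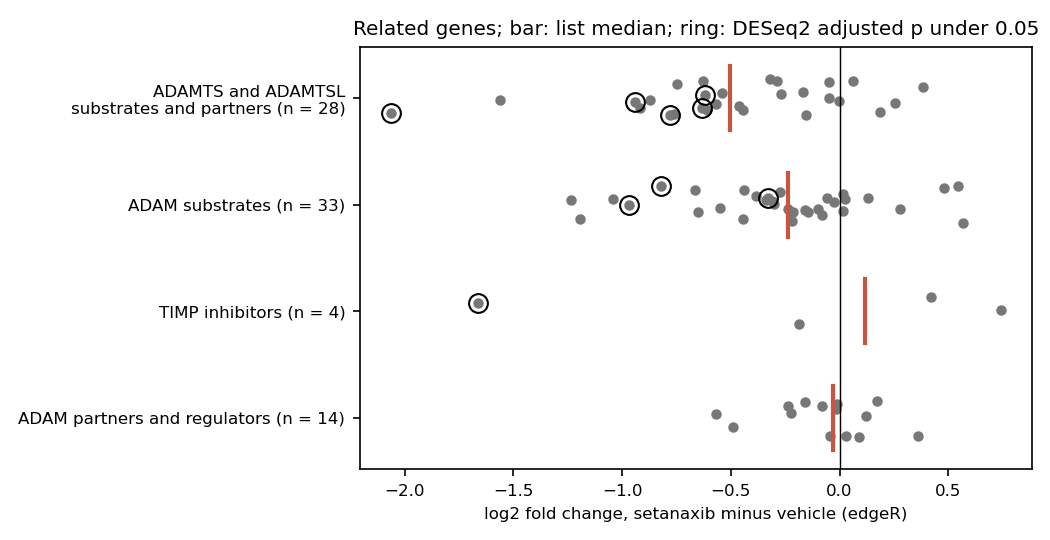
Log2 fold change of each tested gene in the 4 lists of related genes (point), with the list median (bar) and rings for genes with a DESeq2 adjusted p under 0.05. The matrix substrates and partners have the lowest median (-0.50), and Vcan, Fbn1 and Ltbp2 are among its ringed genes.

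Markers were mostly lower in 5 lists (activated fibroblasts, fibroblasts, macrophages, endothelium, and smooth muscle and pericytes), while heart muscle markers were lower in 5 of 9. The marker lists were also chosen with earlier results of these data known. All 10 activated fibroblast markers were lower with setanaxib, summing to 333 to 654 CPM with vehicle and 171 to 334 CPM with setanaxib, and Cthrc1 was at 0 in setanaxib replicates 1 and 3. All 10 macrophage markers were lower, at 360 to 460 CPM against 226 to 280 CPM. Fibroblast markers in general were lower in 8 of 9, at 1530 to 2222 CPM against 1385 to 2525 CPM, and endothelial markers in 6 of 8, at 772 to 877 CPM against 584 to 918 CPM. Smooth muscle and pericyte markers were lower in 8 of 9, at 654 to 736 CPM against 506 to 645 CPM. Neutrophil markers were lower in 2 of 4 tested and lymphocyte markers in 1 of 4, with sums of at most 8.82 and 3.26 CPM. Schwann cell and neuron markers were lower in 2 of 5 tested, and the tested atrial (3), adipocyte (2) and mesothelial (1) markers were all higher, with their highest sums in setanaxib replicate 3. Some genes stand both here and among the substrates (Notch3, Cdh5, Vwf, Comp, Ltbp2, Col1a1, Dcn, Lum and Mfap5). The part of these cell types in the lower values of Adam19, Adamtsl5, Vcan and Cx3cl1 was not tested.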

How the data were processed

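The authors deposited 1 table of estimated counts per gene for 6 libraries, in whole numbers and not scaled between libraries. The submitters' processing notes name GRCm39, DESeq2 1.42.0, featureCounts 2.0.1, STAR 2.5.4b and FastQC 0.11.9, with no step given for any of them. Per the file headers, columns end and genes are named as in output of StringTie's script for counts. The sources used here do not say whether counting used strand, so reads of overlapping genes on opposite strands cannot be told apart; 9 of 34 tested members share exon bases with another gene. The gene called by edgeR and 1 overlapping gene are not reported here. Estimates can be 0 for reasons other than absence. Each library had 30 to 40 genes at 1 and 157 to 188 at 2, so these values are not plain read tallies, and no rounding was needed.

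Genes were filtered with filterByExpr (minimum count 10), leaving 20472, and scaled by TMM. CPM values use the TMM-scaled totals. The test was the quasi-likelihood F test of edgeR 4.0.16 in R 4.3.3, setanaxib minus vehicle over 6 libraries, two-sided, with Benjamini-Hochberg adjustment over all genes and a threshold of 0.05. Standard errors derive from the F statistic. DESeq2 1.42.0, limma 3.58.1 (voom), other scalings and filters, and fits without each library were the alternatives. The fit was tested on simulated data with the same dispersion for every gene and no outlying library. These libraries are unlike that, so the simulation does not show how the fit performs on them. The design assumed raw counts, and the same tests were kept. Members and lists were chosen with earlier results of these data known.

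Members are given by library if their unadjusted p was under 0.05, their groups did not overlap, edgeR or DESeq2 called them, or they were among the 3 of highest mean CPM in their subfamily. From each related list, the 2 genes of lowest p and the 2 of highest mean CPM are given, and other genes named were chosen after their values were seen. Exon lengths are the union of GENCODE M21 exons.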

Additional observations from a re-analysis of the deposited data

How the results depend on the processing

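By edgeR 1 gene was called, and the count was also 1 with DESeq2 size factors, library totals alone, both other filters, and without setanaxib replicate 1, 2 or 3. It was 0 by limma-voom (1962 genes at an unadjusted p under 0.05, against 1731 by edgeR) and 0 to 1 over the fits without 1 library, with 0 without vehicle replicate 1, 2 or 3. DESeq2 called 494 genes. The 8 members at an unadjusted p under 0.05 became 5 with library totals alone, of which 3 were among the 8 and none was higher, and 3 to 10 without 1 library. Over all genes the count of 1731 became 1323 with library totals alone and 990 to 2834 without 1 library. The subfamily medians moved by less than the spread between libraries in all alternatives. That spread, an SD of 0.367 for ADAMTS, was taken from the same libraries, setanaxib replicate 3 included, so it is a wide measure. The ADAMTS median of 0.0858 still changed sign, to -0.05 by limma-voom, -0.01 without vehicle replicate 2 and -0.28 without setanaxib replicate 3. Of 180 values of the 15 members given by library under 12 alternatives, 173 kept direction and call, 5 turned direction and 2 became called. Outside DESeq2 no fit called a member, so keeping the call there meant only staying uncalled. An unadjusted edgeR p under 0.05 was kept by Adam12 in 1 of the 6 fits without 1 library. Adam11, Adam1b, Adamts4 and Adamtsl2 kept it in 2, Adamts3 in 3, and Adam19 and Adamtsl5 in 6. Adam19 and Adamtsl5 passed by DESeq2 alone, with adjusted p of up to 0.994 and 0.861 elsewhere. Without 1 library the log2 fold change of Adam15 ranged from -0.291 to 0.056, turning to 0.0057, 0.0128 and 0.056 without vehicle replicate 2, setanaxib replicate 2 and setanaxib replicate 3. That of Adamts1 ranged from -0.19 (without setanaxib replicate 1) to 0.47, and that of Adamts9 from -0.46 to 0.13 (without setanaxib replicate 3). The cause was not tested. No paired analysis was possible because the labels give no replicate numbers shared between groups. The spread between libraries limits these comparisons. A level of 3 counts lies at 0.0247 CPM or less, but an estimate of 0 need not mean a level below it.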

Other observations

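Some relatives of the family carry other symbols and were looked at after the members' values were seen. Papln, which codes for papilin, an ADAMTS-like glycoprotein of basement membranes, measured 15.5, 15.98 and 15.1 CPM in the vehicle group against 11.7, 12.1 and 10.3 CPM in the setanaxib group. Its groups did not overlap, with a log2 fold change of -0.45 (SE 0.11), an edgeR adjusted p of 0.382 and a DESeq2 adjusted p of 0.00867. Thsd4, also known as ADAMTS-like 6 and a fibrillin-binding protein, measured 10.5, 9.64 and 10.7 CPM in the vehicle group against 12.1, 12.1 and 21.0 CPM in the setanaxib group. All 3 setanaxib libraries were higher, with a log2 fold change of 0.55 (SE 0.24), an edgeR adjusted p of 0.611 and a DESeq2 adjusted p of 0.381. Adamdec1, a shortened ADAM of intestinal macrophages, was at 0 except for 0.410 CPM in setanaxib replicate 3.

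Adam28, an ADAM of lymphocytes and epithelia, was at 347 estimated counts (2.63 CPM) in setanaxib replicate 3 and at 0 in the other libraries. Adam21 was at 42 estimated counts (0.288 CPM) in vehicle replicate 2 and at 0 elsewhere. Adamts17 was listed at 0 in vehicle replicate 1 and Adamts19 in setanaxib replicate 1, although the other libraries held 0.691 to 1.43 CPM and 0.513 to 3.10 CPM.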
